A study of Mus musculus with 15 samples.

Results

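The genes described here are 8 genes of the glomerular podocyte: Nphs1, Podxl, Synpo, Wt1, Ptpro, Clic5, Npnt and Magi2. They were taken as a list of names, and their probes were found through the RefSeq transcript accession that the array files give for each probe. All 8 had a probe above background in every sample of at least 1 tissue and were among the 15617 genes tested. The 15 samples were total RNA from female FVB/N mice, each hybridised to its own one-colour Agilent mouse array. In 12 of them the tissue came from wild-type hosts aged 48 to 55 weeks, which had received 2 intraperitoneal doses of monocrotaline, a plant toxin that injures the liver, at 70 mg/kg and 2 weeks apart. These hosts then received 1000000 hepatocytes from FVB/N donors transgenic for human alpha-1-antitrypsin (hA1AT) under the kidney capsule, and tissue was taken 250 to 300 days later. Host kidney (n = 4), host liver (n = 4) and neo-liver (n = 4), the liver-like tissue microdissected from the kidney, make up these 12, so all 3 host tissues carry the toxin and the transplant. Control liver (n = 3) came from normal mice aged 20 weeks. The series addressed whether transplanted adult hepatocytes can organise liver tissue in the kidney. The podocyte genes were compared over the 4 tissues and as a share of the host kidney level.

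Podocytes are the epithelial cells that wrap the capillaries of the kidney glomerulus. Their interlocking foot processes are bridged by the slit diaphragm, built around nephrin, and this bridge together with the glomerular basement membrane holds plasma proteins back from the urine. Loss of single podocyte proteins is a known cause of inherited nephrotic syndrome. Podocytes are found in no part of the healthy liver.

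The 250 bases upstream of the annotated start are printed for members whose signals fell together from host kidney to neo-liver to liver and whose RefSeq entry (build GRCm38.p6) was read. Entries were read for 5 of the 8 members, Nphs1, Ptpro, Clic5, Npnt and Magi2. The reading did not cover every chromosome, so a member without a window here may still have an entry. The sequences run 5′ to 3′ in the direction of the gene. They are from Nphs1 at chr7:30459808-30460057 on the plus strand, Ptpro at chr6:137252049-137252298 on the plus strand, Clic5 at chr17:44188322-44188571 on the plus strand, and Npnt at chr3:132950292-132950541 on the minus strand, the first of 2 annotated starts. No capitals appear in them, since capitals were kept for motif matches and none was found in these 4.
Nphs1: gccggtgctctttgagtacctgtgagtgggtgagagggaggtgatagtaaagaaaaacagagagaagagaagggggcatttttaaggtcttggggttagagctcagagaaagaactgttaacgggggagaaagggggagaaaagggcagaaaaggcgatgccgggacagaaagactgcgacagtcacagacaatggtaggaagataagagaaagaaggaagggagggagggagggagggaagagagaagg
Ptpro: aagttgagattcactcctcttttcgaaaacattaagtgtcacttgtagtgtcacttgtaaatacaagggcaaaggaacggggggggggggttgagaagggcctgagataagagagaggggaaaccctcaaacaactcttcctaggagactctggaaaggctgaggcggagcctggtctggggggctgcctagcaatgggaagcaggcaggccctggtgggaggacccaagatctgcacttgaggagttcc
Clic5: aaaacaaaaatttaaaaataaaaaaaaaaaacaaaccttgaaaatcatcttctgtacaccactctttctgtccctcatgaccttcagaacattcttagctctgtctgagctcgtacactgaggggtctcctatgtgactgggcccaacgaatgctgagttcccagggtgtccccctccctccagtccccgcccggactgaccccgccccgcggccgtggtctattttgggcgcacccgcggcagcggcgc
Npnt: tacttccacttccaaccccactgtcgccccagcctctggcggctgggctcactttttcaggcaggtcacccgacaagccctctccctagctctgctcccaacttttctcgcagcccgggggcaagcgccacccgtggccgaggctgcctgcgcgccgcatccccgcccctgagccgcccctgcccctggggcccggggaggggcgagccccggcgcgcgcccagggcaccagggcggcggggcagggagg
Their share of G and C was 50.8% for Nphs1, 53.6% for Ptpro, 52.8% for Clic5 and 74% for Npnt. Among the motifs searched on both strands were GCGNGGGNG (bound by WT1 and by EGR proteins) and TAATTA (a homeodomain site), and the result for 1 further motif is left out. They occurred in 10.5% and 4.84% of 32851 promoters of the same length. Among the 5 members whose entries were read, a match was found only upstream of Magi2, to GCGNGGGNG at one start and to TAATTA at the other. That these letters were not seen in the 4 printed windows says nothing about the binding of the factors.

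Signals are given as a percentage of the 75th percentile signal of the same array (relative signal), and fitted differences as log2 differences with their standard error from limma. A gene was called higher or lower where its Benjamini-Hochberg adjusted p over all 15617 genes was under 0.05. The 75th percentile signal ranged from 287 to 874 over the 15 arrays, and 46.4 to 67.6% of probes were well above background, with host liver 1 the lowest of all arrays on both counts. No probe spot was saturated. Because probes bind with unequal strength, a gene's relative signal is compared only with that of the same probe in other tissues. The hybridisation slides held host kidney alone, neo-liver together with control liver, and host liver split over 2 slides. Slide and tissue therefore cannot be told apart in comparisons with host kidney or host liver, and only neo-liver and control liver were compared within 1 slide. The labels name no separate litter or extraction for each array, and the p-values measure the spread between these arrays. Of the hepatocyte markers, 8 of 8 were called higher in neo-liver than in host kidney, as were 23.2% of all genes. Of the distal tubule and collecting duct markers, 18 of 19 were lower in host liver than in host kidney (31.2% of all genes). Neo-liver also carried kidney markers, with 19 of 19 distal and 14 of 16 proximal ones higher than in control liver (20.4% of all genes) and none lower. Its hepatocyte markers were lower than in control liver for 4 of 8 (29.8% of all genes) and higher for none. Against host liver 6 of 8 were lower (31.5% of all genes) and none higher.

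In outline, 7 of the 8 genes had their strongest signal in host kidney, an intermediate signal in neo-liver and a weak one in both livers, and Magi2 stayed near background everywhere. Synpo counts among the 7, here and below, by its brighter probe only, and its other probe ordered the tissues the other way. Against host kidney, neo-liver was lower for 6 members (Nphs1, Podxl, Ptpro, Clic5, Npnt and Magi2) and higher for none, with a median member difference of -1.24, where 29.5% of all genes tested were called lower, 23.2% were called higher and the median of all genes was -0.09. Against control liver, neo-liver was higher for 7 members, all but Magi2, with a median of 3.05, where 20.4% of all genes were called higher. Against host liver the same 7 were higher, with a median of 2.43, where 17.1% of all genes were called higher. Host liver was lower than host kidney for these 7, from -1.96 for Synpo to -6.26 for Clic5, with a median member difference of -4.12, where 31.2% of all genes were called lower. In these bulk samples, fewer podocytes and less RNA per podocyte cannot be told apart. With normexp correction the median was 1.48 against control liver, 1.26 against host liver and -2.57 for host liver against host kidney. The comparisons share arrays, so their counts are not independent of each other. Neo-liver and control liver differ also in age, toxin, transplant and site.

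**Figure D1:**
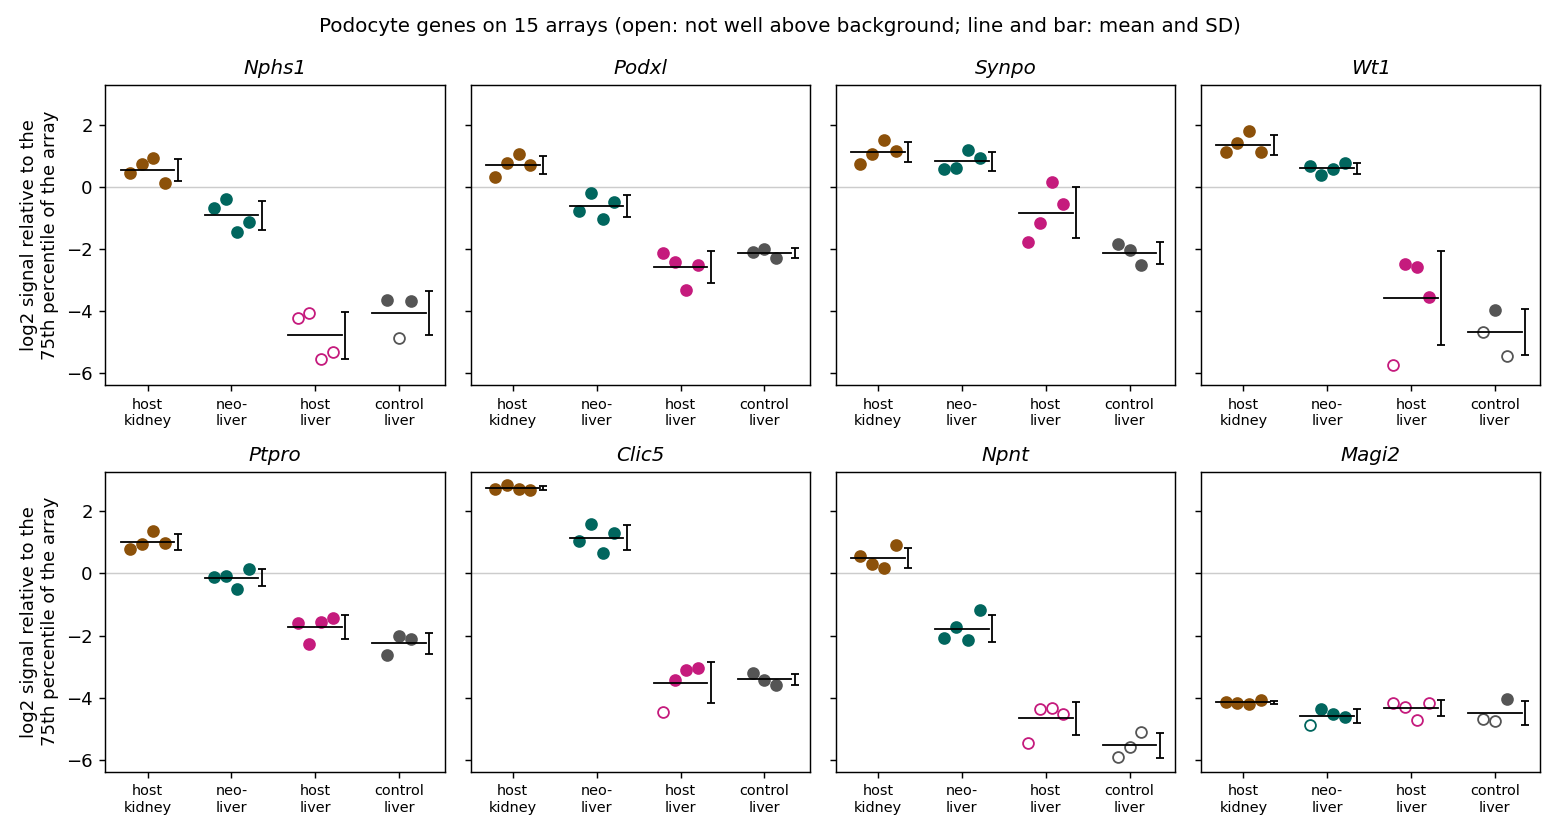
Signal of each podocyte gene on a log2 scale relative to the 75th percentile of the array (vertical axis), by tissue (horizontal axis); each point is 1 of 15 arrays, open points were not well above background, and lines and bars give the mean and SD of the log2 values. For Nphs1, Podxl, Wt1, Ptpro, Clic5 and Npnt the 4 neo-liver arrays lie between host kidney and both livers without overlap. How many of all genes tested separate in this way was not counted. For Synpo, read by its NM_177340 probe alone, they overlap host kidney, and for Magi2 all tissues lie together.

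Nphs1 encodes nephrin, the transmembrane protein that spans the slit between foot processes. Its relative signal in host kidney was 135, 165, 191 and 108% on arrays 1 to 4, a mean of 149.6 ± 36.2% (SD, n = 4). In neo-liver it was 62.7, 75.8, 36.3 and 45.7%, a mean of 55.1 ± 17.6% (SD, n = 4). The lowest kidney array stood above the highest neo-liver array. Nphs1 was thus 2.76-fold lower in neo-liver, a log2 difference of -1.46 ± 0.38 (SE, limma adjusted p = 0.00563). On the host liver arrays it read 5.34, 6.04, 2.15 and 2.49%, none of them well above background, and on the control livers 8.06, 3.39 and 7.79%, with 2 of 3 above background. Neo-liver exceeded control liver by 3.15 ± 0.41 (SE, limma adjusted p = 3.92e-05). For a tissue with no array above background, a fold is given as a lower bound against the detection limit of those arrays. By that bound neo-liver stood at least 8.20-fold above host liver for Nphs1, and host liver was at least 22.6-fold lower than host kidney. The 2 livers overlapped for Nphs1, and the difference between them was -0.72 ± 0.41 (SE, limma adjusted p = 0.221).

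Magi2 encodes a scaffold protein with several PDZ domains that binds nephrin inside the cell. Its probe gave a weak signal on every array, between 3.41 and 6.06%. It was well above background on 4 of 4 host kidney arrays, 3 of 4 neo-liver arrays, no host liver array and 1 of 3 control liver arrays. Host kidney read 5.75, 5.54, 5.48 and 5.91%, and neo-liver 3.41, 4.86, 4.38 and 4.09%. The difference of -0.45 ± 0.17 (SE, limma adjusted p = 0.0397) was called lower, but with normexp background correction it was 0.05 (limma adjusted p = 0.765), and the call was lost when any 1 of host kidney 1, 2, 3 or 4 or neo-liver 1, 3 or 4 was left out. It was also lost with the slide as a random block (limma adjusted p = 0.0556) and with median centring (limma adjusted p = 0.05002). Without neo-liver 1, the one neo-liver array below background, the adjusted p was 0.111. In host liver Magi2 read 5.55, 5.04, 3.80 and 5.53%, and in control liver 3.94, 3.68 and 6.06%. For neo-liver the limma adjusted p was 0.247 against host liver and 0.676 against control liver. With normexp correction host liver minus host kidney was 0.66 and was called higher (limma adjusted p = 0.0004475), against -0.20 (limma adjusted p = 0.301) without it. The probe thus gave no separation of kidney from liver that held across the background corrections.

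Podxl encodes podocalyxin, the charged sialomucin of the podocyte's apical surface, which vascular endothelium also makes. In host kidney its relative signal was 125, 169.7, 205 and 161%, a mean of 165 ± 33.1% (SD, n = 4). Neo-liver read 58.3, 86.8, 48.6 and 71.4%, a mean of 66.2 ± 16.6% (SD, n = 4), with every array under the lowest kidney array. The log2 difference was -1.33 ± 0.25 (SE, limma adjusted p = 0.000534), or 2.51-fold lower. Unlike nephrin, podocalyxin was above background on every liver array. Host liver read 23.0, 18.7, 9.96 and 17.6% and control liver 23.4, 24.9 and 20.2%. Neo-liver was higher than control liver by 1.51 ± 0.27 (SE, limma adjusted p = 0.000429) and higher than host liver by 1.97 ± 0.25 (SE, limma adjusted p = 3.50e-05). Host and control liver overlapped (limma adjusted p = 0.229). The 9 endothelial markers gave summed relative signals of 4731 to 5941% in neo-liver, 4800 to 5918% in host kidney, 4812 to 7737% in host liver and 3820 to 3926% in control liver. All 9 were above background on every array, and their part in the Podxl signal was not tested.

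Ptpro encodes a receptor tyrosine phosphatase of the podocyte's apical membrane, known as GLEPP1. Host kidney gave 172, 194, 259.7 and 195%, and neo-liver gave 92.6, 94.9, 71.3 and 110.4%. The tissues did not overlap, and neo-liver was 2.22-fold lower (log2 difference -1.15 ± 0.21, SE, limma adjusted p = 0.000466). In host liver the signal was 33.3, 20.7, 34.1 and 37.2%, and in control liver 16.2, 25.0 and 23.0%, all above background. Neo-liver was higher than control liver by 2.12 ± 0.23 (SE, limma adjusted p = 6.86e-06) and higher than host liver by 1.58 ± 0.21 (SE, limma adjusted p = 5.81e-05). The 2 livers overlapped and differed by 0.54 ± 0.23 (SE, limma adjusted p = 0.100), a value that passed the threshold with median centring (limma adjusted p = 0.0486) and without host liver 2 (limma adjusted p = 0.0200).

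Clic5 encodes a chloride intracellular channel family protein that joins ezrin and podocalyxin to the actin of foot processes, and it is also made by glomerular endothelium. It had the tightest kidney values of the 7 responding genes, 662, 714, 662 and 639% on arrays 1 to 4, a mean of 669 ± 31.4% (SD, n = 4). Neo-liver spread further, with 205, 302, 159 and 249% and a mean of 229 ± 61.2% (SD, n = 4). Neo-liver was 3.01-fold lower (log2 difference -1.59 ± 0.27, SE, limma adjusted p = 0.000275). In host liver the relative signal was 4.53, 9.27, 11.5 and 12.1%, with host liver 1 not above background, and in control liver it was 10.8, 9.35 and 8.40%. Neo-liver thus stood 4.56 ± 0.29 above control liver (SE, limma adjusted p = 5.48e-08) and 4.67 ± 0.27 above host liver (SE, limma adjusted p = 2.07e-08). The step from host kidney to host liver, -6.26 ± 0.27 (SE, limma adjusted p = 1.33e-10), was the largest fitted difference among the members. Host and control liver lay together at -0.11 ± 0.29 (SE, limma adjusted p = 0.807), a sign that turned under 3 alternatives and without host liver 1.

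Npnt encodes nephronectin, a basement membrane protein that binds integrin alpha-8 beta-1 and is also made by collecting duct epithelium. Its relative signal in host kidney was 149, 125, 114 and 188%. In neo-liver it was 23.5, 30.5, 22.9 and 44.6%. The drop was the steepest among the members, 4.83-fold (log2 difference -2.27 ± 0.29, SE, limma adjusted p = 2.22e-05). No liver array was above background for Npnt, with host liver at 2.28, 4.89, 4.98 and 4.38% and control liver at 1.66, 2.09 and 2.93%. Against those detection limits Npnt was at least 5.98-fold higher in neo-liver than in control liver (limma adjusted p = 6.26e-07) and at least 4.59-fold higher than in host liver (limma adjusted p = 4.41e-06). Host liver was at least 22.1-fold lower than host kidney. A second Npnt probe for the same transcript gave host kidney signals of 152, 99.96, 86.8 and 196% and neo-liver signals of 18.1, 19.0, 13.9 and 28.1%. Its difference of -2.73 had the same direction.

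Synpo encodes synaptopodin, an actin-associated protein of foot processes that is also found in neurons and other contractile cells. It was one of the pair of members whose signal in neo-liver was not called lower than in host kidney. Host kidney read 167, 209, 286 and 219.7%, and neo-liver read 147, 151, 227 and 189%, so the ranges overlapped. Within mice 1 to 4 the log2 difference was -0.19, -0.47, -0.34 and -0.22, below 0 in 4 of 4. The fitted log2 difference was -0.30 ± 0.33 (SE, limma adjusted p = 0.468), and the adjusted p was 0.222 with the mouse as a replicate block in limma. Synpo was higher in neo-liver than in control liver, at 27.8, 24.4 and 17.5%, by 2.95 ± 0.36 (SE, limma adjusted p = 2.15e-05). The host liver arrays were widely spread at 28.9, 44.9, 110.1 and 67.6%, and neo-liver exceeded them by 1.65 ± 0.33 (SE, limma adjusted p = 0.00133).

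Synpo was also the only member called between the 2 livers, where 13.4% of all genes were called higher in host liver than in control liver. The difference was 1.29 ± 0.36 (SE, limma adjusted p = 0.0201), and every host liver array lay above every control liver array. The call was lost when those tissues were fitted alone (limma adjusted p = 0.0875), and without host liver 4 (0.0506), control liver 2 (0.0525) or control liver 3 (0.0875). The 10 markers of stellate cells and fibroblasts were all above background on every liver array. Their summed relative signal was 2577, 4463, 2548 and 2575.5% on host liver arrays 1 to 4. In control liver it was 2249 to 2759%, so only host liver 2 lay above that range. Their part in the Synpo signal was not tested.

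The direction for Synpo rests on which of its probes is read. The values above come from the probe for transcript NM_177340, the brighter one over all arrays. The probe for transcript NM_001109975 ordered the tissues the other way, with 36.1, 35.8, 26.3 and 31.6% in host kidney and 39.9, 46.0, 44.4 and 33.5% in neo-liver. On host liver arrays it read 51.2, 71.0, 67.3 and 46.1%, and on control liver arrays 68.2, 76.1 and 66.8%. By this second probe neo-liver minus host kidney was 0.34 and neo-liver minus control liver was -0.79. With both probes averaged, neo-liver minus host kidney was 0.02 (limma adjusted p = 0.948), and host liver minus control liver was 0.51 (limma adjusted p = 0.0938).

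**Figure D2:**
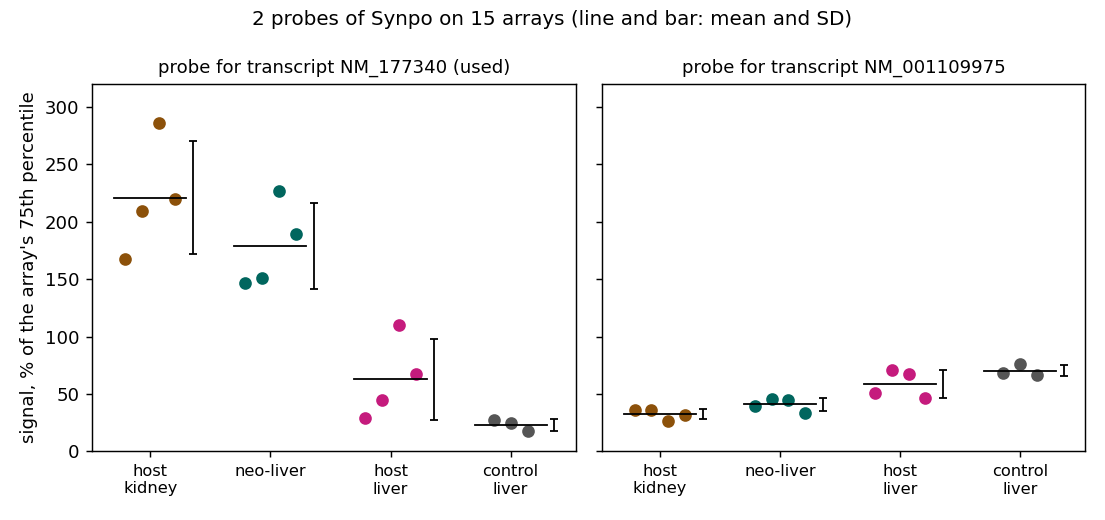
Relative signal of the 2 Synpo probes (vertical axis, percent of the 75th percentile signal of the array) by tissue (horizontal axis); points are arrays, and lines and bars are the mean and SD. The mean for NM_177340 was 221% in host kidney and 23.2% in control liver, and the mean for NM_001109975 was 32.5% in host kidney and 70.3% in control liver.

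Wt1 encodes the zinc finger transcription factor that podocytes keep switched on in adult life, and which mesothelial cells also make. Host kidney gave relative signals of 218, 263, 346 and 215%, a mean of 261 ± 61.4% (SD, n = 4). The neo-liver arrays were close to each other at 157, 129, 148 and 169.7%, a mean of 151 ± 17.0% (SD, n = 4). Neo-liver was 1.70-fold lower with no overlap of the arrays, but the shared fit did not call the difference of -0.77 ± 0.56 (SE, limma adjusted p = 0.271). The spread in that fit comes largely from the livers, where Wt1 was near background: 1.89, 17.8, 16.8 and 8.55% in host liver and 3.91, 6.46 and 2.32% in control liver. The SD of the log2 values was 1.51 in host liver, 0.17 in neo-liver and 0.32 in host kidney. Fitted with those 2 kidney-borne tissues alone, the same difference had a limma adjusted p of 0.00644, and with normexp correction, which compresses low values, it was -0.78 (limma adjusted p = 0.000999). Wt1 was far above both livers in neo-liver, by 5.28 ± 0.61 over control liver (SE, limma adjusted p = 1.27e-05) and by 4.17 ± 0.56 over host liver (SE, limma adjusted p = 6.28e-05). Between the livers the difference was 1.1002 ± 0.61 (SE, limma adjusted p = 0.204), and without host liver 1 it was 1.81 (limma adjusted p = 0.00344).

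Mesothelial markers were examined beside Wt1 because neo-liver lay under the kidney capsule. Of 10 listed genes 9 had a named probe and 6 passed the background filter, and Upk3b, Upk1b and Bnc1 did not. The 6 gave summed relative signals of 1085 to 1355% in host kidney, 186 to 417% in neo-liver, 61.9 to 153% in host liver and 53.6 to 64.0% in control liver. In such a sum the brighter probes weigh more. Between neo-liver and host kidney the 6 genes moved both ways, with 2 called lower, 2 called higher and a median difference of 0.50. Of all genes 29.5% were called lower and 23.2% higher. Gpm6a, a membrane glycoprotein, differed by -3.13 and Aldh1a2, a retinoic acid synthesis enzyme, by -2.36, both lower in neo-liver. Msln, the mesothelial surface protein mesothelin, was higher in neo-liver by 2.04, with means of 19.9% in host kidney, 77.8% in neo-liver, 63.3% in host liver and 20.8% in control liver. Lrrn4 was also called higher, by 2.22, on a signal above background on only 1 of 4 host kidney arrays. The part of these cells in the Wt1 signal was not tested.

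**Figure D3:**
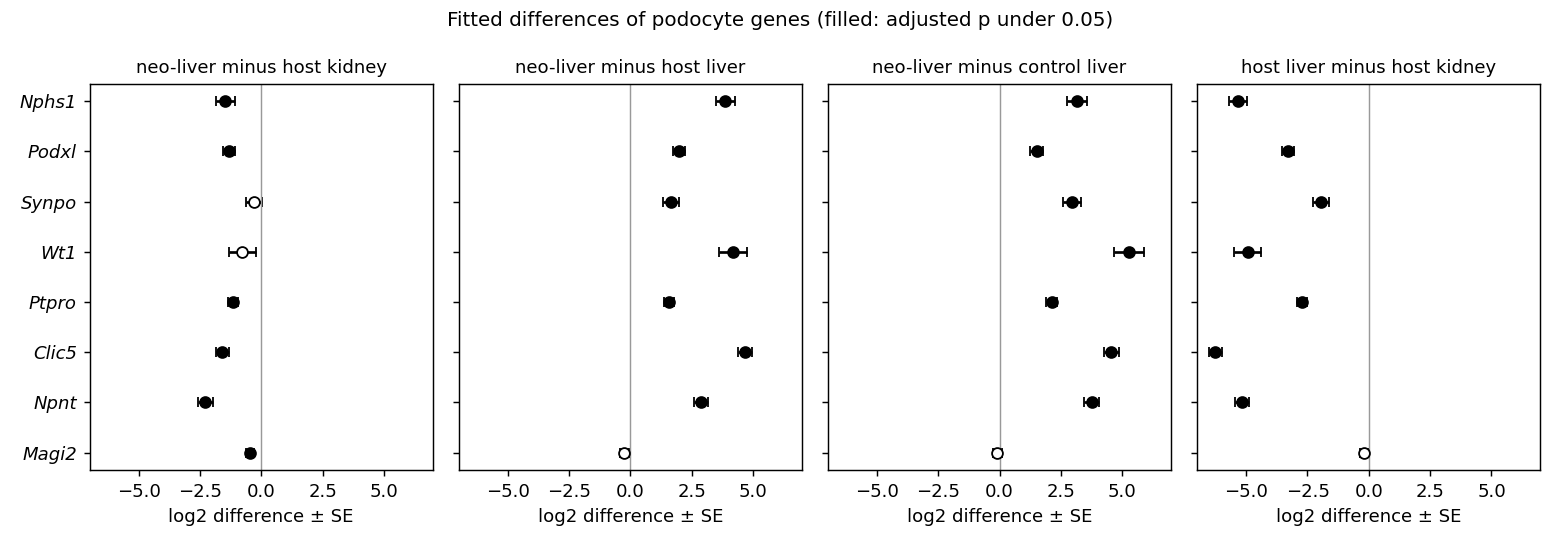
Fitted log2 difference of each podocyte gene with its standard error (horizontal axis) in 4 comparisons, with filled points where the limma adjusted p over all genes was under 0.05. Neo-liver lies below host kidney, at -1.15 to -2.27, for Nphs1, Podxl, Ptpro, Clic5 and Npnt. It lies above both livers for all members except Magi2, with Synpo read by its NM_177340 probe alone.

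To set the genes on 1 scale, the neo-liver signal above the control liver mean was expressed as a share of the host kidney mean above the same control. For Nphs1 the share on neo-liver arrays 1 to 4 was 39.3, 48.5, 20.9 and 27.4%. Podxl gave 24.9, 44.9, 18.1 and 34.1%, and Clic5 gave 29.7, 44.4, 22.6 and 36.2%. Ptpro gave 38.7, 40.0, 27.1 and 48.4%. Npnt gave 15.04, 20.0, 14.6 and 29.9%, below the other 6 members on arrays 1 to 3 and above Nphs1 on array 4. Wt1 and Synpo had the highest, with 59.6, 48.8, 56.2 and 64.5% for Wt1 and 62.7, 64.7, 103 and 84.1% for Synpo. The Synpo shares hold for the probe for NM_177340 alone, since the other probe was weaker in host kidney than in control liver and allows no such share. Neo-liver 3 was the lowest array for Nphs1, Podxl, Clic5, Ptpro and Npnt, and the highest for Synpo. Magi2 has no usable share, since its kidney and liver signals nearly coincide.

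The median share over all 8 members, Magi2 included, was 33.9 ± 9.39% (SD, n = 4) in neo-liver and 0.93 ± 0.64% (SD, n = 4) in host liver. Without Magi2 the neo-liver value was 35.6 ± 9.40% (SD, n = 4). Over the 6 members at least 8-fold above control liver in host kidney the neo-liver share was 38.2 ± 9.36% (SD, n = 4). Shares were taken for the tubule genes that met the same 8-fold rule, 13 of 16 proximal genes and 18 of 19 distal tubule and collecting duct genes. The proximal median was 19.5, 49.4, 21.7 and 38.4%, a mean of 32.2 ± 14.2% (SD, n = 4), and the mean share of single genes ranged from 3.15% for Slc22a13 to 57.3% for Slc5a2. The distal and collecting duct median was 12.2, 40.5, 14.9 and 25.0%, a mean of 23.1 ± 12.8% (SD, n = 4), with mean shares of single genes from 3.69% for Slc12a1 to 49.95% for Slc12a3. As for Nphs1, Podxl and Clic5, both tubule medians were highest in neo-liver 2. The part of the kidney cells marked by these lists in the neo-liver signal of the podocyte genes was not tested.

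**Figure D4:**
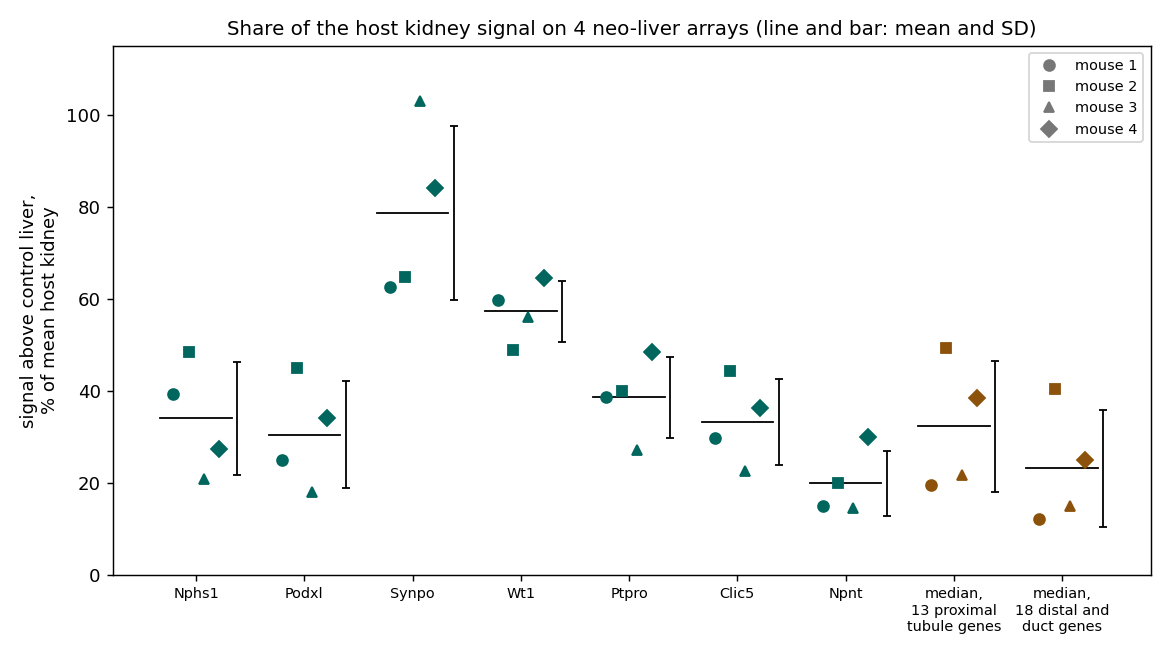
Signal above the control liver mean as a percentage of the host kidney mean above the same control (vertical axis) on the 4 neo-liver arrays, for 7 members and for the median of each tubule list (horizontal axis); point shapes mark the mouse, and lines and bars the mean and SD. Synpo at 78.6%, read by its NM_177340 probe alone, and Wt1 at 57.3% have the highest means and Npnt at 19.9% the lowest, with Nphs1, Podxl, Ptpro and Clic5 between 30.5 and 38.6%.

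Other genes of the podocyte and its surroundings were read from lists by function. Among 13 tested genes of the slit diaphragm and its adaptors, 5 were lower and 2 higher in neo-liver than in host kidney, with a median of -0.17. Over all genes tested 29.5% were lower and 23.2% higher, so these counts, like those of the cytoskeleton list, are near the background. Crb2, a polarity protein, differed by -1.39 and Nck2, an SH2 adaptor that couples nephrin to actin, by -1.37. Plce1, phospholipase C epsilon, was higher by 1.67. Its relative signal was 10.3% in host kidney, 34.1% in neo-liver, 46.7% in host liver and 30.8% in control liver, so the livers stood above the kidney. Against control liver, 6 of the 13 were higher and 2 lower in neo-liver, with a median of 0.41, where 20.4% of all genes were higher and 29.8% lower.

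Of 14 genes for the foot process cytoskeleton, 5 were lower and 2 higher than in host kidney, with a median of -0.21, against the same 29.5% and 23.2% of all genes. Ezr, which encodes the membrane-actin linker ezrin, differed by -1.84, Rhpn1 (rhophilin) by -1.57 and Ahnak by -1.08. Inf2, a formin that remodels actin, was higher by 2.00, with a relative signal of 239% in host kidney, 954% in neo-liver, 1550.4% in host liver and 830.01% in control liver. Most genes of this list are made by many cell types, and their median difference against control liver was 0.23.

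The regulators of podocyte identity behaved more evenly, with 6 of 10 lower and 1 higher in neo-liver than in host kidney and a median of -1.21. Foxc1, a forkhead factor, differed by -3.34 (limma adjusted p = 1.62e-09), with a mean relative signal of 207% in host kidney and 20.5% in neo-liver, and it was not above background on any liver array. Foxd1 differed by -1.97, and only 2 of 4 neo-liver arrays were above background. Dach1 differed by -1.56.

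Basement membrane and adhesion genes were lower for 9 of 13 and higher for 2, with a median of -0.82. Col4a3 and Col4a4, chains of the collagen IV network that podocytes lay down, differed by -2.19 and -2.09, and Lama5, a laminin chain, by -1.44. Nid1, encoding nidogen, was higher by 1.64. Col4a3 was below background in all control livers, and neo-liver stood at least 12.2-fold above them (limma adjusted p = 6.24e-07). Among 11 tested secreted and surface products, 5 were lower and none higher, with a median of -0.32, against 29.5% and 23.2% of all genes. The 3 most reduced were Tdrd5 at -1.78, Mme (the endopeptidase neprilysin, also a proximal tubule product) at -1.69 and Sema3g at -1.41.

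Counts for other cell types are read against the same background, 29.5% of all genes lower and 23.2% higher in neo-liver than in host kidney. The lists are short, and the counts are given as a description. Glomerular endothelial genes were lower for 4 of 7 and higher for 1, with Emcn at -1.47, Plat at -1.44 and Sost at -1.07, and with Ehd3 higher at 1.68. Mesangial and juxtaglomerular genes were higher for 3 of 8 and lower for 2, and parietal epithelial genes higher for 2 of 5 and lower for 1. Proximal tubule genes were lower for 13 of 16 with a median of -1.74, and distal tubule and collecting duct genes for 17 of 19 with a median of -2.03. General endothelial genes were lower for 3 of 9 and higher for 1. Stellate cell and fibroblast genes were higher for 7 of 10, macrophage genes for 4 of 5, lymphocyte genes for 4 of 4, and bile duct genes were lower for 3 of 5 and higher for 1. Platelet genes were lower for 1 of 6 and higher for none, with a median of 0.70. No list was tested as a set.

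**Figure D5:**
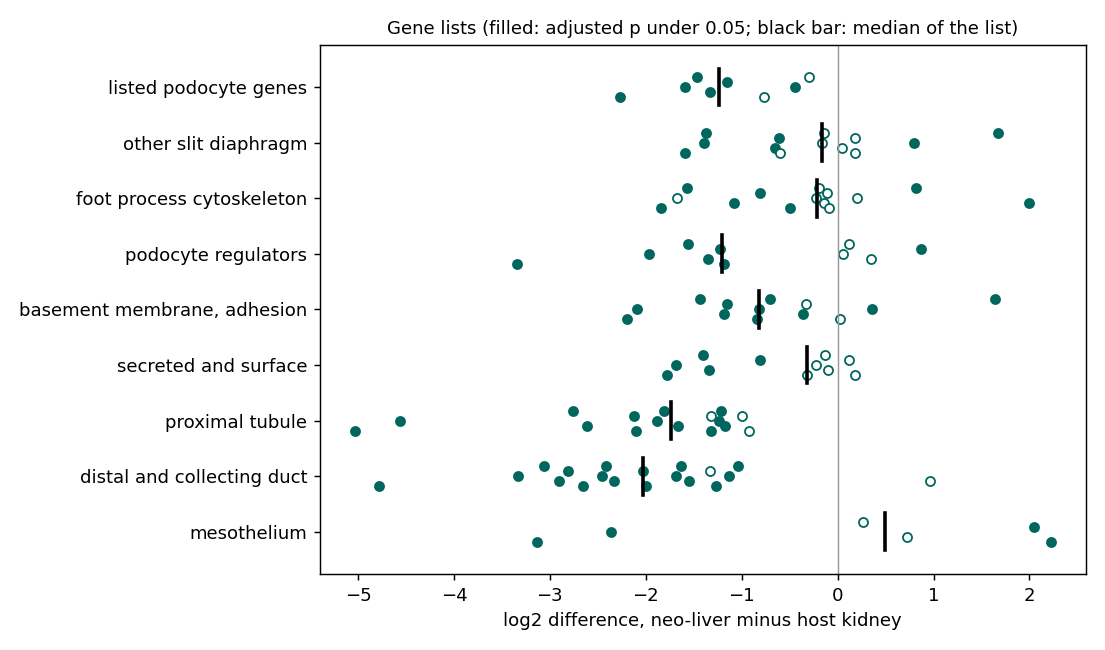
Fitted log2 difference between neo-liver and host kidney (horizontal axis) for each tested gene of 9 lists (vertical axis); each point is a gene, filled where the limma adjusted p was under 0.05, and the black bar is the median of the list. The podocyte genes have a median of -1.24, the regulators -1.21, the proximal tubule genes -1.74 and the distal and collecting duct genes -2.03, while the slit diaphragm and cytoskeleton lists centre near 0 with members on both sides.

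Among 8260 genes whose tissue means spanned at least 1 log2 unit, those with the most similar profile to each member were found by the root mean square difference of centred log2 values over the 15 arrays. The members themselves were not candidates, so similarity between members was not read. For Ptpro the closest were Rasa2 (0.22) and Gata2 (0.23), and for Podxl they were Slc1a5 (0.30) and Castor2 (0.31). Synpo lay nearest to Mpzl1 (0.35) and Sox4 (0.37), and Clic5 to Glis2 (0.35) and Bex4 (0.36). The nearest to Npnt were Pdk3 (0.39) and Snord123 (0.42), and to Nphs1 they were Syn2 (0.46) and Pvalb (0.47). Pvalb is a marker of the distal convoluted tubule. Wt1 had no close neighbour among the candidates, with Cyp2s1 (0.62) and Gpc3 (0.66) the nearest. These distances include the liver arrays, where Wt1 was near background with a log2 SD of 1.51 in host liver and 0.74 in control liver. The part of that spread in the distances was not tested. Magi2, with its flat profile, was nearest to Mark2 (0.31) and Tecpr1 (0.32). Apart from the members, which were left out, no gene of the podocyte lists was among the 2 nearest of any member.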

How the data were processed

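The authors deposited one scanner file per array from Agilent Feature Extraction 10.10.1.1 (per the submitters' processing notes), for 15 one-colour Cy3 arrays. The intensity used was the processed signal, which per the file headers is already background-corrected, together with the 0 or 1 flags for probes well above background, which are other values of the same deposited files. The authors also deposited a table of log2 values. It matched log2 of the processed signal minus a constant for each array within 0.01 for about 99.8% of probes, and it served as an alternative.

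From there, the processed signal was averaged over the spots of a probe without outlier spots. The log2 of that mean was then taken, minus the 75th percentile of the array's log2 values. Of 55681 probes, 26582 had a gene symbol through their RefSeq accession and 34982 were well above background on every array of at least 1 tissue. The probe with the highest mean stood for a gene, which left 15617 genes, 4004 of them with several kept probes. R 4.3.3 and limma 3.58.1 fitted all 15 arrays with a mean per tissue and Benjamini-Hochberg adjustment. The code was tested on simulated data. The number of arrays limits the precision.

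The members and the lists were chosen with earlier results of these data known. Named are all members, the 3 called genes with the largest difference in a list's main direction and 1 in the other, in neo-liver minus host kidney, defining markers, and 2 nearest genes for each member. A few of the genes it picks are not reported here. The replicate numbers of the host tissues deviated together, with residual correlations of 0.18 to 0.58 in 12 of 12 same-numbered pairs, each higher than with any other number, so the numbers were taken to pair the mice. The labels do not state the pairing. Alternatives were quantile normalization, median centring, normexp correction with an offset of 50, the deposited log2 values, other filters and probe rules, blocks for slide and mouse, a fit of 2 tissues alone, and each array left out.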

Additional observations from a re-analysis of the deposited data

Results flagged for a closer look

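Of 24 gene and tissue combinations with 4 arrays that were examined for a single array far from the rest, 1 stood out. Npnt on host liver 1 had a relative signal of 2.28%, below the other 3 host liver arrays, and on the log2 scale, on which arrays were examined, the gap to its nearest neighbour was 0.836 of the whole range. All 4 host liver arrays were below background for Npnt. Chance alone marks about 1 in 20 such groups.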

How the results depend on the processing

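Of the member values under every alternative and left-out array, 728 kept their direction and their side of the threshold, 11 kept their direction and passed it only under the alternative, 14 kept their direction and no longer passed it, and 10 changed sign, some of them also crossing the threshold. The replicate block changed no call of a member in the 3 comparisons of host tissues (neo-liver minus host kidney again had 6 members called and a median of -1.242), and over all genes it called 9275 instead of 8228 in neo-liver minus host kidney. A fixed block could not be fitted with control livers, which come from other mice. The slide as a random block and median centring each ended the call of Magi2 in neo-liver minus host kidney. The mouse as a random block and the median share without Magi2 were added after the data were seen.

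For host liver minus control liver, where 1 member was called, the count was 2 with quantile normalization, 3 with median centring, 0 with the mean of kept probes, 0 in a fit of those tissues alone, and 0 to 3 with 1 array left out: 3 without host liver 1, 2 without host liver 2, and 0 without host liver 4, control liver 2 or control liver 3. The median member difference for host liver minus host kidney was -3.9 with median centring, -2.568 with normexp correction and -4.308 to -3.84 with 1 array left out. It was -4.941 when probes had to be above background on every array of at least 2 tissues, whichever they were. That filter left 7 members, without Magi2. For neo-liver minus control liver it was 1.481 with normexp, 2.633 with the mean of kept probes and 2.869 to 3.226 with 1 array left out. For neo-liver minus host liver it was 1.258 with normexp and 2.889 with the same filter on at least 2 tissues. The median share in neo-liver was 43.55% with no control liver subtracted.

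The values that changed sign were those of Magi2 in host liver minus host kidney (0.004352 with quantile normalization, 0.01513 with median centring, 0.6592 with normexp, which passed the threshold), Magi2 in neo-liver minus host kidney (0.05185 with normexp, no longer called), Clic5 in host liver minus control liver (0.02428 with quantile normalization, 0.03133 with median centring, 0.1339 with normexp, and from -0.2702 without host liver 4 to 0.203 without host liver 1), Magi2 in neo-liver minus control liver (from -0.2345 without control liver 2 to 0.1248 without control liver 3) and Synpo in neo-liver minus host kidney (0.01721 with the mean of its probes, which disagree). The other causes were not tested. Magi2 in all tissues and Nphs1, Wt1, Clic5 and Npnt in liver were too close to background for small differences to be read.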
